A study of Mus musculus with 3 samples.

Results

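The hypoxia response and glycolysis genes are 32 mouse genes that were picked by symbol and followed through single-cell RNA-seq of 3 melanomas. All 32 were present among the 36530 features of the count tables, each matched through its Entrez ID. The list was drawn up with results of these data known. High levels of Ero1a, Gpi1 and Bnip3 in Tumor2, a cluster of melanoma cells, had already been noticed, so the high level of the list in Tumor2 is a description of how the genes were chosen and not a finding. The genes fall into 15 glycolytic enzymes and regulators, 3 proteins of glucose entry, lactate export and the pyruvate gate, 5 oxygen sensors and related 2-oxoglutarate oxygenases, 6 genes of mitochondria, redox and stress, and 3 secreted or surface proteins.

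The tumors came from mice on a C57BL/6 background that carry Braf LSL.V600E together with the transgene Tyr.CreER, in which a tamoxifen-activated Cre expressed in melanocytes switches on mutant Braf. A version of the line also carries the Cre-dependent reporter Rosa26 LSL.tdTomato. Tumors were induced on the flank skin with 4-OH tamoxifen. There was 1 untreated tumor, 1 tumor that had regressed on vemurafenib, an oral inhibitor of mutant BRAF, and 1 tumor that had progressed on vemurafenib. The labels give neither age nor sex. The 3 libraries held 4095, 3726 and 4849 cells with median depths of 4496, 2658 and 4566 UMIs, and they shared 0 cell identifiers. Xist, the RNA that coats the inactive X chromosome of females, stood at 1494 CPM (counts per 1000000 UMIs) in the untreated library, 0.403 CPM in the regressed and 1735 CPM in the progressed one, and haemoglobin genes took 0.272%, 3.96% and 0.00848% of the UMIs in the same order. With 1 tumor per group, a difference between treatments and a difference between animals cannot be told apart, no test between groups was possible, and the 95% intervals given below cover counting error only.

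Cells normally keep the hypoxia-inducible factors HIF-1α and HIF-2α low, because prolyl hydroxylases of the Egln family use oxygen to mark them for destruction through the von Hippel-Lindau protein. When oxygen falls the factors accumulate, pair with ARNT and bind DNA at a short core motif near genes for glucose uptake, glycolysis, lactate export, mitophagy and blood vessel growth. Glycolysis turns glucose into pyruvate in the cytosol, lactate dehydrogenase turns pyruvate into lactate, and melanomas are known to use this path heavily.

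In the regressed tumor, the summed level of the 32 genes was highest in Tumor2 cells, at 13156 CPM (12822 to 13498), from 349 cells and 5854 UMIs of the 32 genes. The next cluster was Dividing at 6346 CPM (6007 to 6700), followed by the keratin-rich Undefined2 cells at 4397 CPM (4264 to 4534) and Neutrophils at 3845 CPM (3625 to 4074). Mastcells at 3805, NK_T at 3571, NK_T_Cytolytic at 3559 and Monocytes1 at 3523 CPM came next, and the intervals of neighbours from Neutrophils down to Monocytes1 overlapped. Tumor1, the other melanoma cluster, was eleventh of the 18 clusters with at least 20 cells, at 2787 CPM (2527 to 3067). Its interval overlapped those of its neighbours Undefined1 at 3030 and Monocytes2 at 2496 CPM. Stroma10, the largest cluster, stood at 2281 CPM, Macrophages at 1756 CPM and Erythrocytes lowest at 394 CPM.

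**Figure D1:**
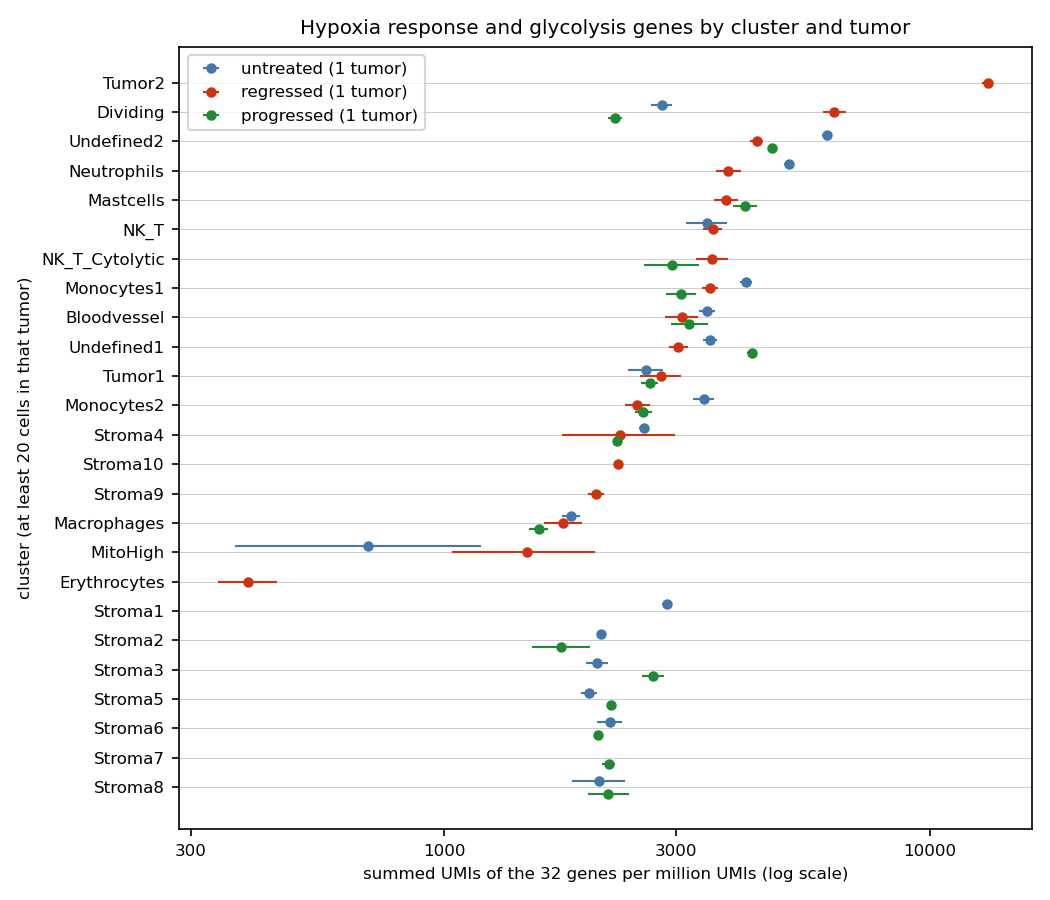
Summed UMIs of the 32 hypoxia response and glycolysis genes in CPM (log axis) for each cluster with at least 20 cells in a tumor. Points are the 3 tumors, coloured by group, and bars are exact Poisson 95% intervals. Regressed Tumor2 stands alone at 13156 CPM, regressed Dividing cells are at 6346 CPM against 2801 untreated and 2245 progressed, and the 3 Tumor1 points lie between 2602 and 2787 CPM.

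Both melanoma clusters carried lineage marks. All 12 melanocyte-lineage and transgene markers had UMIs in regressed Tumor2 cells, led by Dct at 1495, the transgene element tWPRE at 1290, Pmel at 447 and Sox10 at 438 CPM. In regressed Tumor1 cells 8 of the 12 did, with tWPRE at 1509 and Sox10 at 814 CPM and with tdTomato, Mlana, Tyrp1 and Ednrb at 0. Markers of other cell types stood at similar sums in Tumor2 and Tumor1 for neutrophils (481 and 490 CPM, with Ly6g at 0 in both), mast cells (544 and 543 CPM), red blood cells (1616 and 1622 CPM) and keratinocytes (980 and 1046 CPM). They were lower in Tumor2 for fibroblasts (3735 and 7064 CPM), macrophages and monocytes (249 and 477 CPM) and pericytes (115 and 477 CPM, with Kcnj8 at 0 in both), and higher for endothelial cells (189 and 92.7 CPM, with Kdr at 0 in both) and dividing cells (96.6 and 26.5 CPM). NK and T cell markers stood at 133 and 106 CPM and dendritic markers at 20.2 and 26.5 CPM.

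Set against Tumor1 of the same tumor, Tumor2 held 4.72-fold more of the summed genes, a log2 ratio of 2.24 (2.10 to 2.38). Of the 31 genes with at least 10 UMIs in the 2 clusters together, 25 were at least 2-fold higher in Tumor2 and 0 at least 2-fold lower, against 18.0% and 12.6% of the 8275 features tested in that way. Their median log2 ratio was 2.38, and that of all features tested was 0.12. Because this contrast chose the genes, nothing is read from these counts. Against all 3377 other cells of the regressed tumor together the ratio was 4.87-fold (log2 2.28, 2.24 to 2.32), and 28 of 32 genes were at least 2-fold higher where 26.3% of 16549 features were. Nothing is read from this count either.

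**Figure D2:**
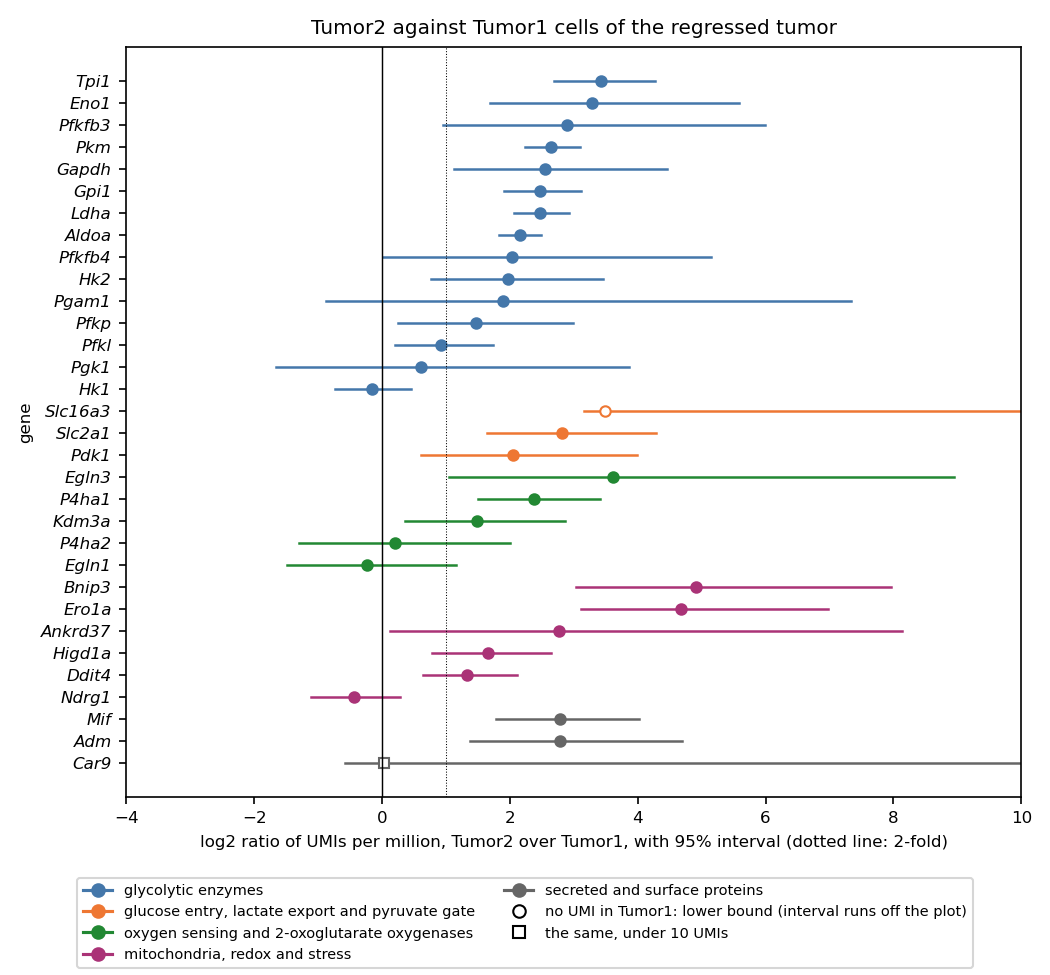
Log2 ratio of CPM in Tumor2 over Tumor1 cells of the regressed tumor for each gene, by role, with exact conditional binomial 95% intervals. Open symbols are lower bounds for genes without a UMI in Tumor1, the dotted line marks a 2-fold ratio, and Bnip3 (4.91) and Ero1a (4.68) have the largest values while Hk1, Egln1 and Ndrg1 lie just below 0.

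Among the glycolytic enzymes, Aldoa, Pkm, Ldha, Tpi1 and Gpi1 had 427 to 1117 UMIs in Tumor2 and the others at most 101. Aldoa, the aldolase that splits the 6-carbon sugar, gave the most UMIs of the list, at 2510 CPM in Tumor2 and 563 CPM in Tumor1 (log2 2.16, 1.84 to 2.49). Pkm, the pyruvate kinase of the last step, stood at 2034 against 324 CPM (2.65, 2.23 to 3.09), and Ldha, which makes lactate, at 1843 against 331 CPM (2.48, 2.06 to 2.92). Together with Tpi1, which interconverts the 3-carbon sugars, these genes made up 56.6% of the summed UMIs in Tumor2. Tpi1 itself differed more, at 1063 against 99.3 CPM (3.42, 2.68 to 4.27). Gpi1, the isomerase after hexokinase, stood at 960 against 172 CPM (2.48, 1.91 to 3.11). For these abundant enzymes, Tumor1 counts of 15 to 85 UMIs set the width of the intervals.

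Counts were lower for the other enzymes. Eno1, an enolase, had 86 UMIs in Tumor2 and 3 in Tumor1 (log2 3.28, 1.69 to 5.59), and Gapdh, which oxidises the 3-carbon sugar, had 69 and 4 (2.55, 1.13 to 4.47). The reads kept were those that mapped to a single place, and Gapdh, Eno1, Pgk1 and Pgam1 have near-identical copies in the genome, which leaves their levels uncertain. Over all cells Gapdh had 1229 UMIs and Pgk1 206, where Aldoa had 31965. Hk2, an inducible hexokinase that starts the path, stood at 155 against 39.7 CPM (1.96, 0.77 to 3.46), whereas Hk1, the hexokinase most cells use, stood at 202 against 225 CPM (-0.15, -0.74 to 0.46). The phosphofructokinases Pfkl (0.93, 0.20 to 1.74) and Pfkp (1.47, 0.25 to 2.99) and the makers of their activator fructose 2,6-bisphosphate, Pfkfb3 (2.90, 0.96 to 5.99) and Pfkfb4 (2.03, 0.02 to 5.15), all had intervals above 0. Pgk1 (9 and 2 UMIs) and Pgam1 (11 and 1 UMIs), which catalyse the steps after Gapdh, had intervals that held 0. In all, 12 of the 15 glycolytic genes were at least 2-fold higher, where 18.0% of all features were, and Hk1, Pfkl and Pgk1 were not. The 12 include Pgam1, and nothing is read from the count because this contrast chose the genes.

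The genes around the path differed in the same direction. Slc2a1, the GLUT1 glucose transporter, stood at 279 against 39.7 CPM (log2 2.81, 1.65 to 4.28). Slc16a3, the lactate exporter MCT4, had 99 UMIs in Tumor2, or 222 CPM, and 0 in Tumor1. With the 0 set to 3 UMIs over the cluster, the ratio was 11.2-fold. Pdk1, the kinase that shuts off the entry of pyruvate into mitochondria, stood at 110 against 26.5 CPM (2.06, 0.61 to 3.99).

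Bnip3 and Ero1a had the largest ratios of all. Both had been noticed as high in Tumor2 before the list was drawn up, so nothing is read from this rank. Bnip3, a mitochondrial receptor for mitophagy, had 177 UMIs in Tumor2 and 2 in Tumor1 (398 against 13.2 CPM, log2 4.91, 3.03 to 7.97). Ero1a, the oxidase that drives disulfide formation in the endoplasmic reticulum, had 227 and 3 (510 against 19.9 CPM, 4.68, 3.12 to 6.97). In the same role group, Ankrd37, an ankyrin-repeat protein induced by HIF, had 20 UMIs and 1 (2.76, 0.12 to 8.14). Higd1a, a mitochondrial protein, stood at 249 against 79.4 CPM (1.65, 0.79 to 2.65) and Ddit4, an mTORC1 inhibitor, at 317 against 126 CPM (1.33, 0.64 to 2.11). Ndrg1, a stress-responsive gene that is a standard hypoxia marker, went the other way, at 133 against 179 CPM, with an interval that held 0 (-0.43, -1.11 to 0.28).

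The oxygen sensors were split. Egln3, the hydroxylase that HIF itself induces, had 36 UMIs in Tumor2 and 1 in Tumor1 (log2 3.61, 1.04 to 8.95), while Egln1, the main oxygen sensor, had 20 and 8 (-0.24, -1.48 to 1.16). P4ha1, a collagen prolyl hydroxylase subunit, stood at 380 against 72.8 CPM (2.38, 1.51 to 3.41), and its relative P4ha2 at 38.2 against 33.1 CPM (0.21, with an interval that held 0). Kdm3a, a histone H3 lysine demethylase of the same enzyme class, stood at 130 against 46.3 CPM (1.49, 0.36 to 2.87). Of the secreted and surface proteins, Mif, a cytokine, stood at 366 against 53.0 CPM (2.79, 1.78 to 4.03) and Adm, the vasodilator adrenomedullin, at 182 against 26.5 CPM (2.78, 1.37 to 4.69). Car9, the surface carbonic anhydrase used as a hypoxia marker in human tumors, had 9 UMIs in Tumor2 and 0 in Tumor1, which is too few for a ratio here. The 4 genes under 20 UMIs in Tumor2 were Pgk1, Pgam1, P4ha2 and Car9.

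Each gene was then placed among all 18 clusters of the regressed tumor. Levels in Tumor2 had helped to choose the list, so nothing is read from the counts and shares that follow. Tumor2 had the highest CPM for 20 of the 32 genes, where 7.32% of the 16506 features with at least 10 UMIs in these clusters had theirs there. For 8 genes, namely Gpi1, Aldoa, Tpi1, Pkm, Ldha, Bnip3, Ero1a and P4ha1, the interval of Tumor2 lay above those of the 17 other clusters, where 0.303% of the features had such an interval. Ero1a stood furthest apart, at 510 CPM against 88.1 CPM in Mastcells, the next cluster. Bnip3 stood at 398 against 108 CPM in NK_T_Cytolytic cells, and Gpi1 at 960 against 340 CPM in Dividing cells. Ldha was closer, at 1843 against 1273 CPM in Mastcells.

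The other 12 genes were higher in some other cluster, and for 2 of them intervals lay apart. Slc16a3 reached 410 CPM (340 to 490) in Neutrophils against 222 CPM in Tumor2, and Ndrg1 reached 492 CPM (419 to 574) in Mastcells against 133 CPM, with Bloodvessel cells above Tumor2 as well. Egln3, Pfkp and Higd1a had their highest values in the keratin-rich Undefined2 cells, at 123, 170 and 275 CPM against 80.9, 110 and 249 CPM in Tumor2. Ankrd37 and Egln1 were highest in NK_T_Cytolytic cells, at 56.5 and 77.0 CPM, from 11 and 15 UMIs.

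**Figure D3:**
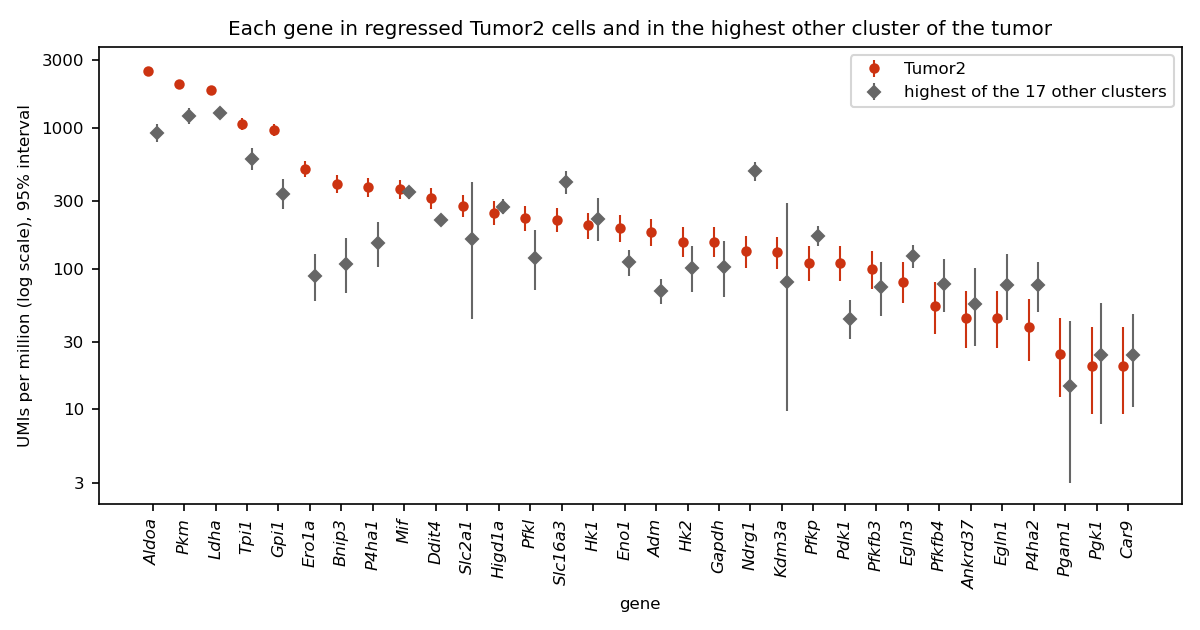
CPM (log axis) of each gene in regressed Tumor2 cells and in whichever of the 17 other clusters of that tumor was highest for the gene, with exact Poisson 95% intervals. From Aldoa to P4ha1 on the left, Tumor2 intervals lie above the diamonds, and for Slc16a3 (410 against 222 CPM) and Ndrg1 (492 against 133 CPM) the diamonds lie above Tumor2.

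Neutrophils, the immune cluster with the highest sum, held a different mixture. Pkm at 924, Aldoa at 618, Slc16a3 at 410 and Ldha at 373 CPM led there and made up 60.5% of the sum. Relative to Neutrophils, Tumor2 had a log2 ratio of 1.77 (1.68 to 1.87) for the sum, 2.65 (1.95 to 3.44) for P4ha1, 3.44 (2.66 to 4.33) for Ero1a and 4.76 (2.86 to 7.83) for Adm, but -0.88 (-1.28 to -0.49) for Slc16a3 and -0.52 (-1.41 to 0.37) for Pfkfb4. At least 2-fold higher in Tumor2 were 23 of 32 genes, where 50.4% of 8751 features were. Because levels in Tumor2 helped to choose the list, nothing is read from this count. For the trio of Slc2a1, Slc16a3 and Pdk1 the sums of Tumor2 and Neutrophils were close, at 611 and 578 CPM (log2 0.08, -0.20 to 0.36).

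Regressed Dividing cells were the nearest to Tumor2. The sum was 2.07-fold higher in Tumor2 (log2 1.05, 0.96 to 1.14), and 18 of 32 genes were at least 2-fold higher, where 18.2% of 8632 features were. Here too nothing is read from the count, for the same reason. Gpi1 (2.82-fold), Bnip3 (3.90-fold) and Ero1a (6.56-fold) had wide gaps, whereas Tpi1 (1.78-fold), Pkm (1.67-fold), Ldha (1.65-fold) and Mif (1.45-fold) did not reach 2-fold. Of the 75 Dividing cells, 41 held a transgene UMI, and in them the sum stood at 7127 CPM (6690 to 7585) against 4715 CPM (4208 to 5267) in the 34 without. The cluster was mixed. Hair keratins such as Krt35 and Krt28 were among its leading genes, and keratinocyte markers stood at 12382 CPM with NK and T cell markers at 1774 CPM and melanocyte-lineage and transgene markers at 996 CPM. The part of these cell types in its level was not tested.

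The level was spread over many Tumor2 cells. To compare cells at equal depth, each cell was thinned at random to 500 UMIs, and the 37 Tumor2 cells below that depth were left out. The 312 Tumor2 cells kept had a median of 5 UMIs of the 32 genes (quartiles 2.75 and 11, range 0 to 31), against a median of 1 (range 0 to 5) in 58 Tumor1 cells. At least 5 such UMIs were found in 51.9% (46.2 to 57.6) of Tumor2 cells, 32.4% (21.5 to 44.8) of Dividing cells, 8.13% (4.81 to 12.7) of Neutrophils, 2.80% (0.767 to 7.01) of Macrophages, 1.72% (0.0436 to 9.24) of Tumor1 cells and 0.726% (0.363 to 1.30) of Stroma10 cells. No UMI of the list was found in 4.81% of Tumor2 cells. The single highest cell held 31 such UMIs in Tumor2, 16 in Dividing, 11 in Macrophages, 9 in Neutrophils and 7 in Stroma10.

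Single genes showed the same spread, though Gpi1, Ero1a and Bnip3 had been noticed as high in Tumor2 before the list was drawn up. After thinning, 65.7% (60.1 to 71.0) of Tumor2 cells held an Aldoa UMI against 20.7% (11.2 to 33.4) of Tumor1 cells, and 33.7% against 6.90% held one of Gpi1. An Ero1a UMI was found in 20.2% (15.9 to 25.1) of Tumor2 cells and a Bnip3 UMI in 13.5% (9.88 to 17.8), while 0 of 58 Tumor1 cells held either, which allows up to 5.17% of cells with a UMI at this depth (Clopper-Pearson upper limit 6.16%) and sets no limit on cells that express the genes. Without thinning, 26.9% of Tumor2 and 4.92% of Tumor1 cells held an Ero1a UMI at median depths of 768 and 1712 UMIs.

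**Figure D4:**
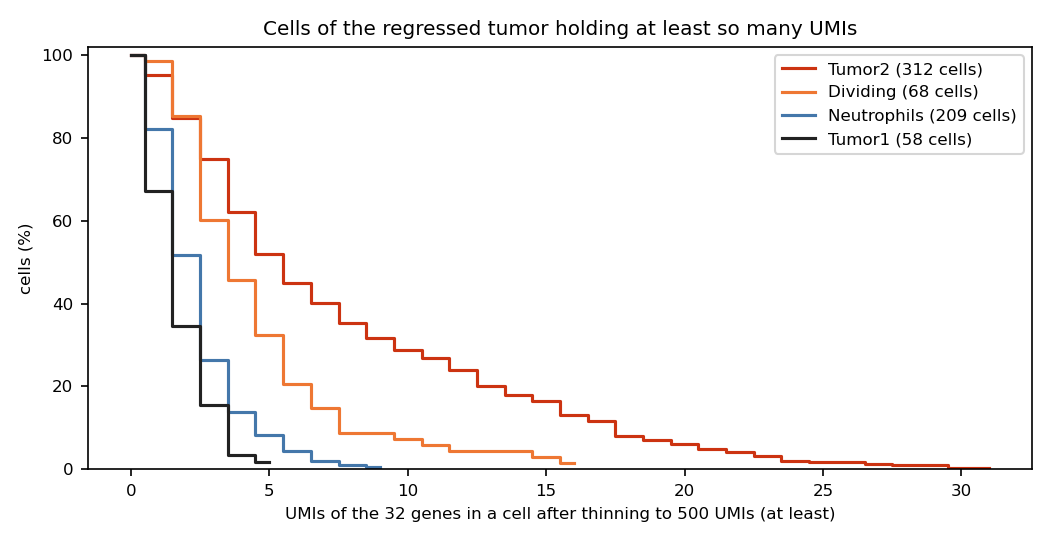
Percentage of cells of the regressed tumor (vertical axis) that held at least a given number of UMIs of the 32 genes (horizontal axis) after every cell was thinned to 500 UMIs. The Tumor2 line of 312 cells runs out to 31 UMIs, the Dividing line to 16, the Neutrophils line to 9 and the Tumor1 line to 5.

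Tumor2 cells were shallow, and the level within the cluster moved with depth. The sum stood at 19155 CPM (17144 to 21337) in the 37 cells under 500 UMIs, 14789 CPM in the 191 cells from 500 to below 1000 UMIs, 14190 CPM in the 68 cells from 1000 to below 2000 UMIs and 11080 CPM (10624 to 11550) in the 53 deeper cells. In Tumor1 the class with the deepest cells was the highest, at 3075 CPM (2748 to 3431) in 22 cells against 2207 CPM in 23 and 2166 CPM in 13 shallower ones. At each depth shared by the clusters Tumor2 thus lay above Tumor1. Cells with and without a transgene UMI were close, with 12756 CPM (12319 to 13205) in the 174 Tumor2 cells that held a transgene UMI and 13678 CPM (13161 to 14210) in the 175 that did not. Mitochondrially encoded genes took 0.994% of the UMIs in Tumor2 and 1.76% in Tumor1.

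**Figure D5:**
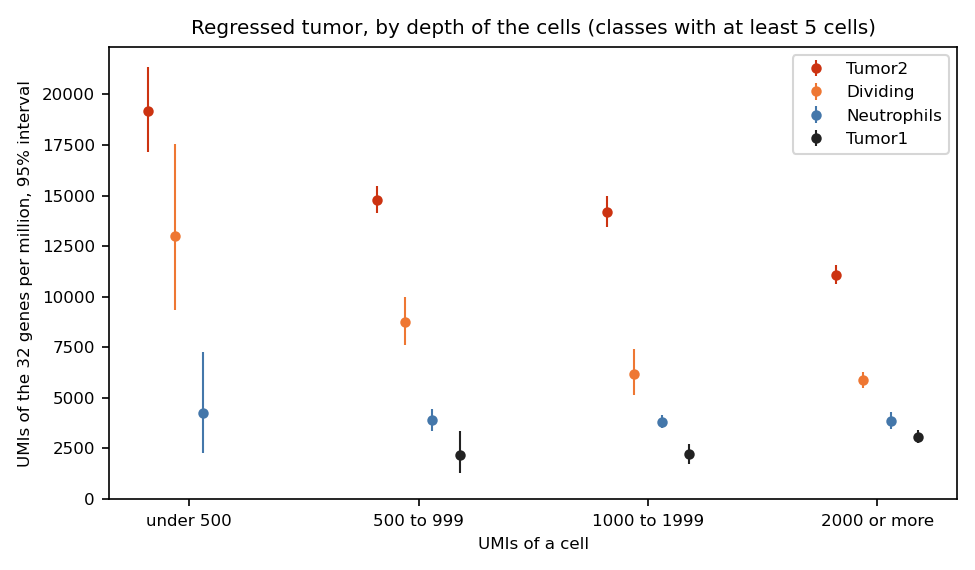
Summed UMIs of the 32 genes in CPM (linear axis from 0) in cells of the regressed tumor grouped by their number of UMIs, for clusters with at least 5 cells in a class, with exact Poisson 95% intervals. Tumor2 falls from 19155 CPM under 500 UMIs to 11080 CPM at 2000 UMIs or more. Its points lie above those of Dividing and Neutrophils in every class, and above those of Tumor1, which has none under 500 UMIs. In that class the intervals of Tumor2 (17144 to 21337) and Dividing (9363 to 17560) overlap.

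The genes that make and degrade HIF differed less, and they were sparsely counted. Hif1a, which encodes HIF-1α, stood at 74.2 CPM in Tumor2 and 79.4 CPM in Tumor1 (log2 -0.10, -1.09 to 0.99). Epas1, which encodes HIF-2α, had 7 and 5 UMIs (-1.07, -2.95 to 0.93), Arnt 16 and 3 (0.86, -0.95 to 3.28) and Vhl 16 and 1 (2.44, -0.25 to 7.83). Of the 12 genes of the HIF system, 9 could be compared, 1 was at least 2-fold higher and 1 at least 2-fold lower, near the 18.0% and 12.6% of all features, with a median of 0.42 where all features had 0.12.

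Of 30 hypoxia targets outside the list, 22 could be compared, and 12 were at least 2-fold higher in Tumor2 and 1 lower, where 18.0% and 12.6% of all features were. Their median log2 ratio was 1.23. Bhlhe40, a transcriptional repressor, stood at 528 against 152 CPM (1.79, 1.17 to 2.48), and Fam162a, a mitochondrial protein, at 346 against 119 CPM (1.54, 0.83 to 2.33). Vegfa, the blood vessel growth factor, stood at 153 against 19.9 CPM (2.94, 1.34 to 5.26), Hmox1, which breaks down haem, at 164 against 26.5 CPM (2.63, 1.21 to 4.54), and Plod2, a collagen lysyl hydroxylase, at 146 against 26.5 CPM (2.46, 1.04 to 4.38). Ets1 (-0.08), Plin2 (-0.22) and Zfp36l1 (-0.59, -1.30 to 0.15) did not stand higher. Lox had 3 and 1 UMIs and could not be compared.

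The remaining metabolic lists stood closer to all features. Of 37 nuclear genes of oxidative phosphorylation, 1 was at least 2-fold higher, namely Sdhc of complex II (log2 1.57, 0.51 to 2.84), and 0 were lower, with a median of 0.11 where all features had 0.12. Of 12 genes of the tricarboxylic acid cycle compared, Idh2 (1.54) and Suclg1 (1.03) were at least 2-fold higher, and of 7 pentose phosphate genes 1 was higher and 1 lower. Among 9 other isozymes of glycolysis compared, Eno1b, which shares its sequence with Eno1, was higher at 2.90 (1.63 to 4.55) and Bpgm, which makes 2,3-bisphosphoglycerate, lower at -1.07 (-1.85 to -0.27). Of 13 genes of the unfolded protein and integrated stress responses, 5 were at least 2-fold higher and 0 lower, where 18.0% and 12.6% of all features were, with a median of 0.87. They included Vldlr (2.65, 0.70 to 5.75), which is also counted among the hypoxia targets above. The others were the endoplasmic reticulum chaperone Hspa5 at 2133 against 854 CPM (1.32, 1.05 to 1.60), the disulfide isomerase Pdia4 (1.26, 0.74 to 1.82), the stress factor Ddit3 (1.71, 0.51 to 3.22) and asparagine synthetase Asns (3.03, 1.09 to 6.11). Atf4, whose protein drives the latter genes, stood at 0.03 (-0.63 to 0.73).

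The promoters of the members were read next, since the genes share a known factor. In the RefSeq promoter table of assembly GRCm38.p6, 31 of the 32 genes had an entry, and Ndrg1 was the exception. The 250 bases before each start were searched on both strands for the HIF core, spelled ACGTG in its usual form and GCGTG in the other. On the opposite strand these read CACGT and, for the latter form, CACGC. The letters CACGTG count as a match on each strand. A core was found in the promoters of 28 of the 31 genes (90.3%), against 47.1% of 17491 protein-coding genes and 66.6% of the 6824 protein-coding genes with a promoter of at least 60% GC. At least 2 cores were found for 64.5%, 22.5% and 36.7% of these sets, and the ACGTG form for 58.1% of the members and 24.8% of the GC-rich set. The median GC content was 63.4% in the members' promoters and 55.6% in those of protein-coding genes. Gpi1, Tpi1 and Mif had no match. Such a match is a string of letters and not a measured binding site, and the members were picked in part as known HIF targets.

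The promoters of 4 genes high in Tumor2 with several cores and of 2 genes also high there without any are given to set these cases beside each other. They are Bnip3 (chr7:138909507-138909756, minus strand), Ero1a (chr14:45318573-45318822, minus strand), Ldha (chr7:46845554-46845803, plus strand), Slc16a3 (chr11:120948817-120949066, plus strand), Gpi1 (chr7:34230337-34230586, minus strand) and Tpi1 (chr6:124814159-124814408, minus strand). Each runs 5′ to 3′ along the gene and ends at the base before the RefSeq start, and capitals mark the core letters on either strand.
Bnip3: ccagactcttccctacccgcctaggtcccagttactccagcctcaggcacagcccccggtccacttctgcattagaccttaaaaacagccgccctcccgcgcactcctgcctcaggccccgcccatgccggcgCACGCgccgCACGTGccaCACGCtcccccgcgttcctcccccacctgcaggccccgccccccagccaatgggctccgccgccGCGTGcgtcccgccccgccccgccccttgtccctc
Ero1a: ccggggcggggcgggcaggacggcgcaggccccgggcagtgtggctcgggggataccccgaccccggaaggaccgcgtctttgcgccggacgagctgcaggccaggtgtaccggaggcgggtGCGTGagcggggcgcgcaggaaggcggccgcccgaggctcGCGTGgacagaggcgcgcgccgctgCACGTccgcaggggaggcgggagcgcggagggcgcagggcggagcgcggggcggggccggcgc
Ldha: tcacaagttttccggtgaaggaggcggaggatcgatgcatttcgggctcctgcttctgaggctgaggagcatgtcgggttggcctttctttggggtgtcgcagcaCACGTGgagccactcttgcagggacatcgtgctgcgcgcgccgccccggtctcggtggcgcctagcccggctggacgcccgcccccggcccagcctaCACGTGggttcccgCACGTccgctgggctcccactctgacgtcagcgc
Slc16a3: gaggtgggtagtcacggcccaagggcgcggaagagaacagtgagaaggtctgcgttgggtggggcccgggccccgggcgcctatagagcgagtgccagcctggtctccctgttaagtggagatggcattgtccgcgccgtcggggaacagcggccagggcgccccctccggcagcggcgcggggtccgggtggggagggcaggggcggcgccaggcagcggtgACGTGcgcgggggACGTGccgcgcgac
Gpi1: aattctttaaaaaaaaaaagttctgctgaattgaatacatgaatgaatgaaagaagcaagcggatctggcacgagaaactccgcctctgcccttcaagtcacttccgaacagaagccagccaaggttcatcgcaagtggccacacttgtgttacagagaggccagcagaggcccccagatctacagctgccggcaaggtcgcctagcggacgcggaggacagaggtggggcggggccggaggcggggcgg
Tpi1: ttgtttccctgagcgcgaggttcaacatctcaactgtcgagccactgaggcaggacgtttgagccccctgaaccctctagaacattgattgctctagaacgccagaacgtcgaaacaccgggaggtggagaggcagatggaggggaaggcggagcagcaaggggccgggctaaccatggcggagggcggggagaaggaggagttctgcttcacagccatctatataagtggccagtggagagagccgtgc

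Bnip3 and Ero1a, noticed as high in Tumor2 before the list was drawn up, had 5 and 3 matches, the farthest at position -128. Ldha had 5, counting both strands of its pair of CACGTG strings, and Slc16a3 had 2 copies of ACGTG at positions -27 and -14. A second Ldha promoter, at chr7:46846832-46847081 and not printed here, had only 1 match, CACGC at position -59. The bases after its start were found in a GENCODE transcript of that symbol. Those after the printed Ldha and Ero1a starts were not, which leaves these 2 starts less certain. Gpi1 and Tpi1 stood 5.58-fold and 10.7-fold higher in Tumor2 than in Tumor1 with no core in this window.

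Tumor1 was the melanoma cluster with at least 20 cells in every tumor, so it was compared between the untreated, regressed and progressed tumors. The summed level was 2602 CPM (2393 to 2824) in 44 untreated cells, 2787 CPM in 61 regressed cells and 2645 CPM (2536 to 2758) in 156 progressed cells. Regressed over untreated gave a log2 ratio of 0.10 (-0.09 to 0.28), progressed over regressed one of -0.08 (-0.23 to 0.08), and progressed over untreated one of 0.02 (-0.11 to 0.16), so each interval held 0. The sign for progressed over regressed changed with the processing, to 0.19 under TMM scaling and 0.21 without the deepest 5% of cells. Tumor2 had only 4 cells in each of the other tumors, with 141 and 40 UMIs of the list and sums of 3256 CPM (2741 to 3840) untreated and 3532 CPM (2523 to 4809) progressed. Bnip3 was at 0 in those 8 cells, and Ero1a had 2 UMIs in the untreated ones.

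Some single genes of Tumor1 differed between the tumors, in both directions, but most intervals held 0. This was so for 13 of 18 genes (regressed over untreated), 20 of 25 (progressed over regressed) and 22 of 26 (progressed over untreated). In regressed over untreated cells, 4 of the 18 genes with enough UMIs were at least 2-fold higher and 1 lower, where 15.7% and 13.8% of 6337 features were. Gpi1 had 26 UMIs against 4 (172 against 18.1 CPM, log2 3.25, 1.72 to 5.23) and Pfkl 18 against 3 (3.13, 1.36 to 5.54). Ndrg1 stood at 179 against 86.1 CPM (1.05, 0.15 to 1.98), and P4ha1 at 72.8 against 36.3 CPM with an interval that held 0 (1.01, -0.44 to 2.52). Pkm, with the most UMIs of the list in untreated Tumor1, was lower at 324 against 666 CPM (-1.04, -1.54 to -0.56). Without Aldoa, Pkm, Ldha and Tpi1 the regressed sum was higher by 0.81 on the log2 scale, a choice of genes made after seeing the values.

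From the regressed to the progressed tumor, 1 of 25 genes in Tumor1 was at least 2-fold higher and 7 were lower, where 14.0% and 15.6% of 9291 features were. Gpi1 (172 to 70.0 CPM, log2 -1.30, -1.99 to -0.57), Pfkl (-1.50, -2.36 to -0.59), Ddit4 (-1.12, -1.91 to -0.27) and Ndrg1 (-0.84, -1.48 to -0.15) were lower, and Ldha was higher (331 to 476 CPM, 0.52, 0.10 to 0.98). From the untreated to the progressed tumor 4 of 26 were at least 2-fold higher and 4 lower, where 12.3% and 9.04% of 9455 features were. The 3 genes of glucose entry, lactate export and the pyruvate gate were all among the lower ones, at 99.7 CPM together in untreated and 29.0 CPM in progressed Tumor1 cells (-1.78, -2.68 to -0.88). Slc16a3 had 8 UMIs untreated and 5 progressed, in a cluster with more cells (36.3 and 6.04 CPM, -2.59, -4.54 to -0.79), whereas the intervals of Slc2a1 (-1.38, -2.72 to 0.03) and Pdk1 (-1.65, -3.62 to 0.40) held 0. Neutrophil markers stood at 1473 CPM in untreated and 3.62 CPM in progressed Tumor1 cells, and Slc16a3 stood at 772 CPM in untreated Neutrophils. The part of such transcripts in the Slc16a3 values of Tumor1 was not tested. Hk1 stood at 118 CPM untreated, 225 regressed and 233 progressed.

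Across the clusters with at least 20 cells in both tumors, the direction of the sum varied. From untreated to regressed it was higher in 4 and lower in 8 of 12 clusters. The interval lay above 0 for Dividing (log2 1.18, 1.07 to 1.29) and MitoHigh (1.09, 0.14 to 2.13), and below 0 for 6 clusters, from Undefined2 (-0.48, -0.54 to -0.42) and Monocytes2 (-0.45) over Neutrophils (-0.41), Monocytes1 (-0.25) and Undefined1 (-0.22) to Bloodvessel (-0.18). MitoHigh rests on 36 UMIs of the list in the regressed tumor. The leading genes of Monocytes2 were dendritic markers, against its name. From regressed to progressed the sum was higher in 5 and lower in 6 of 11 clusters, and from untreated to progressed higher in 5 and lower in 9 of 14.

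Dividing cells had the widest range of these. The sum stood at 2801 CPM (2658 to 2949) in 43 untreated, 6346 CPM in 75 regressed and 2245 CPM (2174 to 2318) in 147 progressed cells, whose median depths were 11361, 889 and 11402 UMIs. Of 25 genes compared, 18 were at least 2-fold higher in regressed than in untreated Dividing cells and 0 lower, where 17.4% and 11.6% of 8645 features were. In the order untreated, regressed, progressed, Gpi1 measured 46.4, 340 and 30.8 CPM, Aldoa 319, 923 and 289 CPM, and Ero1a 5.79, 77.8 and 10.7 CPM. Egln3 and Hk2 did not follow, at 110, 68.0 and 39.7 CPM and at 77.3, 48.6 and 218 CPM. A transgene UMI was held by 5 of 43, 41 of 75 and 39 of 147 of these cells. In the same order, NK and T cell markers stood at 127, 1774 and 6.52 CPM, keratinocyte markers at 8192, 12382 and 4482 CPM, and fibroblast markers at 10478, 3552 and 23826 CPM in Dividing cells. The part of this make-up in the result was not tested. Among Dividing cells without a transgene UMI the sum was 2849, 4715 and 2316 CPM, and among those with one it was 2414, 7127 and 2045 CPM.

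Neutrophils of the regressed tumor held less of the most abundant genes than untreated ones. Pkm stood at 924 against 1394 CPM, Slc16a3 at 410 against 772 CPM, Ldha at 373 against 671 CPM and Aldoa at 618 against 808 CPM. P4ha1 (log2 1.72, 0.78 to 2.62), Ndrg1 (1.30, 0.55 to 2.01) and Pfkfb3 (0.84, 0.06 to 1.56) were higher. Of the 30 genes compared, 3 were at least 2-fold higher and 3 lower, where 35.0% and 5.09% of all features were. The median log2 ratio of the 30 genes compared was 0.07 where all features had 0.65, at median depths of 1252 and 3257 UMIs per cell. In Undefined2 cells, taken in the same order of tumors, Egln3 at 279, 123 and 326 CPM and Hk2 at 153, 31.3 and 178 CPM were lowest in the regressed tumor, as was Ldha at 1249, 663 and 766 CPM.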

How the data were processed

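Single-cell 3′ RNA-seq (10x Chromium v2) was made from 3 dissociated tumors whose cells were taken up in buffer with propidium iodide, 1 each untreated, regressed and progressed on vemurafenib. The deposited tables hold counts of UMIs per gene and cell. Per the submitters' processing notes the authors used GSNAP, Seurat 2.2.0 and GRCm38. Per the study's methods, reads that mapped to a single place in the sense direction of exons were counted, and cells under 300 UMIs were removed. The annotation release is not given in the sources used here. Cluster names are the deposited ones, and doublets were not treated further. A further allele of the mouse line and the level of a marker gene are not reported here.

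The 32 genes and all other lists were chosen with earlier results of these data known. Counts were summed per cluster and tumor and divided by the total to give CPM with exact Poisson intervals. Ratios carry exact conditional binomial and shares Clopper-Pearson 95% intervals. A gene was compared with at least 10 UMIs in both sums together, a sum of 0 was set to 3 UMIs, and a 2-fold ratio was called. A share of 0 allows up to 3 counts of the total. With 1 tumor per group no test was made, and UMIs limit precision to counting error only. Genes with at least 20 UMIs in regressed Tumor2 were given in full, and genes of other lists by counts and, beside the HIF subunits, up to 5 with the most UMIs in regressed melanoma cells among those at least 2-fold apart. A few further ones (Ets1, Plin2, Zfp36l1, Lox, Atf4 and members at lower counts) were named after their values were seen. Depth was 12413268 to 26948940 UMIs per library. Calculations used Python 3.11.15 with numpy 2.4.6, scipy 1.17.1 and pandas 2.3.3, and TMM factors came from edgeR 4.0.16 in R 4.3.3. The code was tested on simulated data. Alternatives were TMM scaling, deeper or thinned cells, leaving out the deepest 5% of cells, equal weight per cell, a total without haemoglobin and mitochondrial genes, leaving out single or several genes, cells with a transgene UMI, and other minimums.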

Additional observations from a re-analysis of the deposited data

Results flagged for a closer look

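Between the same tumors, the summed hypoxia response and glycolysis genes moved up in some clusters and down in others, each with an interval apart from 0. From untreated to regressed, Dividing cells had a log2 ratio of 1.18 and Undefined2 cells one of -0.48. From regressed to progressed, Undefined1 cells had 0.50 and Dividing cells -1.50. From untreated to progressed, Stroma3 cells had 0.38 and Monocytes1 cells -0.45. Each cluster comes from 1 tumor per group, so the difference between clusters was not tested. The share of Dividing cells with a transgene UMI and their depth differed between the tumors, and their part in the values was not tested.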

How the results depend on the processing

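No paired analysis was possible because each group held 1 tumor and the labels give no replicate numbers. The summed level in Tumor2 over Tumor1 (log2 2.24) was 2.08 in cells with at least 1000 UMIs, 2.56 after thinning to 500 UMIs, 2.59 without the deepest 5% of cells and 2.74 with equal weight per cell. Over all other regressed cells (2.28) it was 2.09 under TMM scaling, and 2.17, 2.45, 2.40 and 2.47 under those same settings, and 2.22 with a total that left out haemoglobin and mitochondrial genes. For Tumor1, progressed over regressed (-0.08) turned to 0.19 under TMM scaling, 0.21 without the deepest 5% of cells and 0.12 with equal weight, where the main interval had held 0. Progressed over untreated (0.02) was 0.18 under TMM scaling, 0.21 after thinning, 0.17 without the deepest 5% and 0.17 with equal weight. Leaving out Aldoa, Pkm, Ldha and Tpi1, chosen after seeing the data, gave 1.96 for Tumor2 over Tumor1, and for Tumor1 0.81 (regressed over untreated), -0.41 (progressed over regressed) and 0.40 (progressed over untreated). Clusters with a higher sum numbered 0 in place of 4 for regressed over untreated and 3 in place of 5 for progressed over untreated when 50 cells were required, since fewer clusters qualified, and 8 in place of 5 for progressed over regressed under TMM scaling. The cause of the other shifts was not tested. In all, 24 values moved and 60 did not, and 0 called values changed sign. UMIs in Tumor1 and the 4 Tumor2 cells of each other tumor limit precision.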

Other observations

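Among the stromal clusters compared between the untreated and the progressed tumor, Stroma3 had the largest log2 ratio of the sum, 0.38 (0.28 to 0.49), at 2063 CPM in 120 and 2693 CPM in 88 cells of like depth (medians of 4768 and 4906 UMIs per cell). Stroma5 stood at 1988 and 2201 CPM (log2 0.15, 0.09 to 0.21), and Stroma4 at 2580 and 2272 CPM (-0.18, -0.23 to -0.14). Keratin-rich Undefined2 cells were the highest cluster with at least 20 cells in the untreated tumor, at 6131 CPM, and stood at 4724 CPM in the progressed one.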
